A study of Mus musculus with 2 samples.

Results

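The genes of 9 lipid-sensing G protein-coupled receptors were described: Gpr55, Cnr2, P2ry10, Gpr174, Gpr34, Gpr132, Lpar5, Ptger4 and Ptger2. They are 9 of the 21829 gene symbols in the table, found by symbol in the comparison of CD80low with CD80high cells. Gpr55 was selected on the difference of its expression values between these libraries, so that difference is a description and supports nothing by itself. The RNA came from the spleens of male C57BL/6 mice, wild type and without treatment. Marginal zone B cells lie around the B cell follicles of the spleen and meet antigen carried by the blood. They were divided by CD80, a costimulatory surface protein, into CD80high and CD80low cells, and each population gave 1 library. The sources used here do not state how many mice were used, their age or the other markers of the sort. No difference below has a replicate check.

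These receptors span the membrane and pass the signal of a lipid outside the cell to heterotrimeric G proteins inside it. Receptors that couple to the G12/13 class act on the cytoskeleton, those that couple to Gs raise cyclic AMP, and those that couple to Gi lower it. In lymphoid tissue such receptors are known for placing and holding B cells in their niches and for tuning their activation. In mice, the cannabinoid receptor encoded by Cnr2 is known to help keep marginal zone B cells in place.

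Levels are given as FPKM, which counts sequenced fragments per length of transcript and per library size, so that levels of different genes can be compared. The steps between low values put the depth at about 2.26e+07 fragments for CD80high and 2.31e+07 fragments for CD80low. Folds divide one FPKM value by the other, and the interval after a fold is an approximate 95% exact binomial interval (Clopper-Pearson) on approximated fragment numbers, which covers counting error only. Ratios are the log2 of CD80high over CD80low after adding 1 FPKM to each, a step that shrinks the ratios of low genes. A gene was called measured from a mean of 1 FPKM. The sort marker gene Cd80 had 4.13 FPKM in CD80high against 1.32 FPKM in CD80low. The 8 B cell identity markers were all measured, led by Cd79a (1284 and 1574 FPKM, CD80high first) and Cd79b (987 and 1183 FPKM), which encode signalling chains of the B cell receptor. Of the 8 marginal zone markers 7 were higher in CD80high, where 46.4% of the 9955 measured genes were. The most abundant were Plac8 (1082 and 1029 FPKM) and Cr2 (807 and 837 FPKM), a complement receptor gene and the 1 lower marker. The ratios of the 8 ran from -0.054 to 0.52, with a median of 0.25.

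Gpr55 encodes a receptor for lysophosphatidylinositol that signals through Gq and G13. It lies on chromosome 1 (85938318 to 85961007, minus strand, mm10, GENCODE M21) and has 1 transcript of 3721 nucleotides in the basic annotation. It was listed at 7.79 FPKM in CD80high (counting interval 7.20 to 8.41) against 3.17 FPKM in CD80low (2.81 to 3.57). The intervals do not overlap, and CD80high was 2.45-fold higher (2.13 to 2.84), from about 654 and 273 fragments. The ratio was 1.07. Of the 8 measured receptors Gpr55 was the only one past 2-fold higher, where 0.352% of the 9955 measured genes were. Gpr55 was selected on this difference, so its count here and at 1.5-fold follows from that choice. Its p-value below gives no independent support. None of the 8 was past 2-fold lower, where 0.1% of the 9955 genes were. At 1.5-fold the count was again 1 higher and 0 lower, where 1.51% and 0.894% of the measured genes were. With a pseudocount of 5 in place of 1 the ratio of Gpr55 was 0.65, and no receptor reached 2-fold. In the authors' deposited table, Gpr55 had a p-value of 0.0001 and a q-value of 0.0541, and 15 of the 10814 tested rows had a smaller p-value. Taking p of 0.05 or less with 2-fold in the authors' deposited table, a share of 0.878% was higher in CD80high, Gpr55 included, and 0.102% was lower, none of them a receptor described here. Those p-values rest on 1 library per population. On the opposite strand, 71 exonic bases of Gpr55 (1.91% of its exon length) overlap 4933407L21Rik, with 0.0429 and 0.0419 FPKM.

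**Figure D1:**
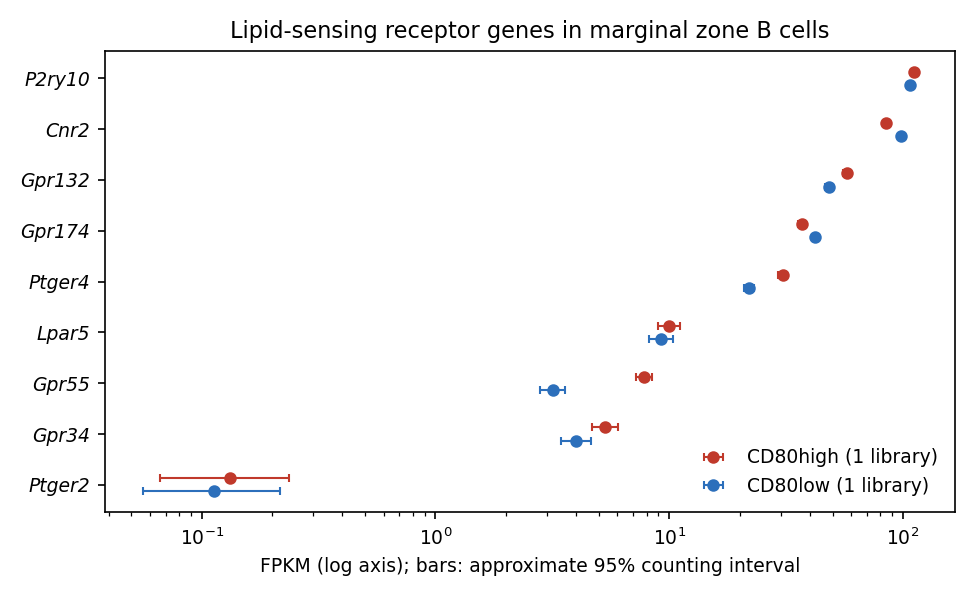
Expression of the 9 receptor genes in FPKM on a log axis, with 1 point per library (red CD80high, blue CD80low) and bars for the approximate 95% counting interval. Gpr55 has the widest gap on this axis, from 3.17 to 7.79 FPKM, and P2ry10 and Cnr2 are the most abundant in both libraries.

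Markers of other cell types were also higher in CD80high. Of 52 markers on 6 lists 47 were higher, counted at any level. Of the 15 that were measured 14 were higher, where 46.4% of the 9955 measured genes were. The share higher among all genes below 1 FPKM was not computed, so the counts at any level, here and by list below, have no background share. Among all genes, 13720 were above 0 in CD80high and 13231 in CD80low. The 52 markers summed to 71.2 and 34.5 FPKM, CD80high first here and in the pairs that follow. The 11 T cell markers, 11 of them higher, summed to 11.4 and 3.47 FPKM, and Cd3e was at 0 in CD80low. The 10 natural killer cell markers summed to 23.5 and 14.1 FPKM, with 8 higher and none at 0. The 12 macrophage and monocyte markers, 12 of them higher, summed to 26.6 and 12.5 FPKM, and Cd14 was at 0 in CD80low. The 7 dendritic cell markers summed to 5.56 and 3.73 FPKM, with 6 higher and Xcr1 at 0 in both libraries. The 7 neutrophil markers summed to 3.42 and 0.452 FPKM, with 5 higher, Ly6g and Cxcr2 at 0 in both, and Camp and Mmp8 at 0 in CD80low. The 5 platelet markers, 5 of them higher, summed to 0.6996 and 0.170 FPKM, and Gp9, Gp1bb, Pf4 and Ppbp were at 0 in CD80low. In CD80high, Camp, Mmp8, Gp9, Gp1bb, Pf4 and Ppbp rested on about 2, 1, 1, 4, 1 and 2 fragments. The fold intervals of these genes include 1, so no difference was detectable for them at this depth. The most abundant of each list were Cd5 (2.21 and 1.20 FPKM) and Lat (1.82 and 1.33 FPKM) for T cells, Prf1 (10.01 and 10.6 FPKM) and Gzma (4.45 and 0.807 FPKM) for natural killer cells, and Cd68 (9.16 and 6.81 FPKM) and Ly6c2 (7.48 and 2.06 FPKM) for macrophages. They were Flt3 (2.15 and 1.94 FPKM) and Itgax (1.88 and 1.04 FPKM) for dendritic cells, S100a8 (1.89 and 0.166 FPKM) and S100a9 (1.33 and 0.258 FPKM) for neutrophils, and Itga2b (0.322 and 0.170 FPKM) and Pf4 (0.1298 and 0 FPKM) for platelets. The part of such cells in the difference of Gpr55, or of any receptor below, was not tested. In bulk RNA, fewer cells of a type and less RNA per cell cannot be told apart.

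Cnr2 encodes CB2, the Gi-coupled receptor for endocannabinoids, and was lower in CD80high. It lies on chromosome 4 (135895394 to 135920207, plus strand). It had 84.8 FPKM in CD80high against 98.5 FPKM in CD80low, so that CD80low was 1.16-fold higher (1.13 to 1.20). The gap exceeds counting error, while the ratio of -0.22 lies within the central 95% of all measured genes, which ran from -0.46 to 0.46. With the FPKM totals of the libraries set equal, at their mean, the ratio was -0.062. The p-value of Cnr2 was 0.384 in the authors' deposited table.

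P2ry10, Gpr174 and Gpr34 encode receptors for lysophosphatidylserine, which are known to couple to G12/13, Gs and Gi in that order. P2ry10 was the most abundant of the 9 genes, with 111 FPKM in CD80high against 107 FPKM in CD80low. Its fold of 1.04 had an interval of 1.004 to 1.07, close to no difference. Gpr174 had 36.9 FPKM in CD80high against 41.95 FPKM in CD80low, and CD80low was 1.14-fold higher (1.09 to 1.19). Gpr34, known chiefly from macrophages and microglia, had 5.33 FPKM in CD80high against 4.01 FPKM in CD80low, and CD80high was 1.33-fold higher (1.09 to 1.62). The members of this class thus differed in direction. The 3 genes together had 154 FPKM in CD80high against 153 FPKM in CD80low. The p-values were 0.827 for P2ry10, 0.465 for Gpr174 and 0.314 for Gpr34 in the authors' deposited table. The ratio of Gpr174, -0.18, was -0.030 with equal totals and -0.28 relative to genes of similar transcript length. With the measured genes in 5 groups by transcript length, the median ratio rose from -0.18 in the shortest group to 0.097 in the longest. The ratio of P2ry10 was 0.053, and 0.21 with equal totals.

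P2ry10 (107088492 to 107104974), its paralogue P2ry10b (107148927 to 107173661) and Gpr174 (107255878 to 107296769) lie in this order on the plus strand of chromosome X, within 208 kb. No other protein-coding gene is annotated between them. P2ry10b had 12.1 FPKM in CD80high against 14.6 FPKM in CD80low, and CD80low was 1.21-fold higher (1.10 to 1.32). The coding sequences of P2ry10 (984 nucleotides without the stop codon) and P2ry10b (1056 nucleotides) were identical at 81.2% of 978 aligned bases. They share an unbroken run of 160 identical bases, from coding base 215 to 374 of both genes, counted from the A of the start codon. It is shown because a fragment inside it cannot be assigned to either gene by sequence. The stretch runs from coding base 195 to 394 in GENCODE M21 transcripts (GRCm38), 5′ to 3′ in the coding sense. Capitals mark the 2 bases that differ, A214G and A375G (P2ry10 base first, P2ry10b base last).
P2ry10: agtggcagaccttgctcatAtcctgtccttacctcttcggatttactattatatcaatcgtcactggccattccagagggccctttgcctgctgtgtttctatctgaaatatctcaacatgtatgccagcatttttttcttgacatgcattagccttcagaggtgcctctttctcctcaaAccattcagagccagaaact
P2ry10b: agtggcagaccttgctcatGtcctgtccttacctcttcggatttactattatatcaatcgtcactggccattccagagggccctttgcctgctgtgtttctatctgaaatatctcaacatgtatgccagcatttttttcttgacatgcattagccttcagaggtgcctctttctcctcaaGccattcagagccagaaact
Of the windows of 100 bases along the longest P2ry10 transcript (2888 nucleotides), 2.19% occur in a P2ry10b transcript, and of the windows of 50 bases 3.98% do. The sources used here state neither the read length nor how ambiguous fragments were shared, so the values of both genes are uncertain. P2ry10 had about 7092 fragments in CD80high and 7010 in CD80low, against 821 and 1016 for P2ry10b. The same number of misassigned fragments would thus weigh more on P2ry10b, and its interval above does not hold this error. P2ry10 and P2ry10b together had 123 FPKM in CD80high against 122 FPKM in CD80low. Among the 44 other pairs of these 10 genes, identity was 55.9% to 66.01% and the longest shared run was 9 to 17 bases.

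**Figure D2:**
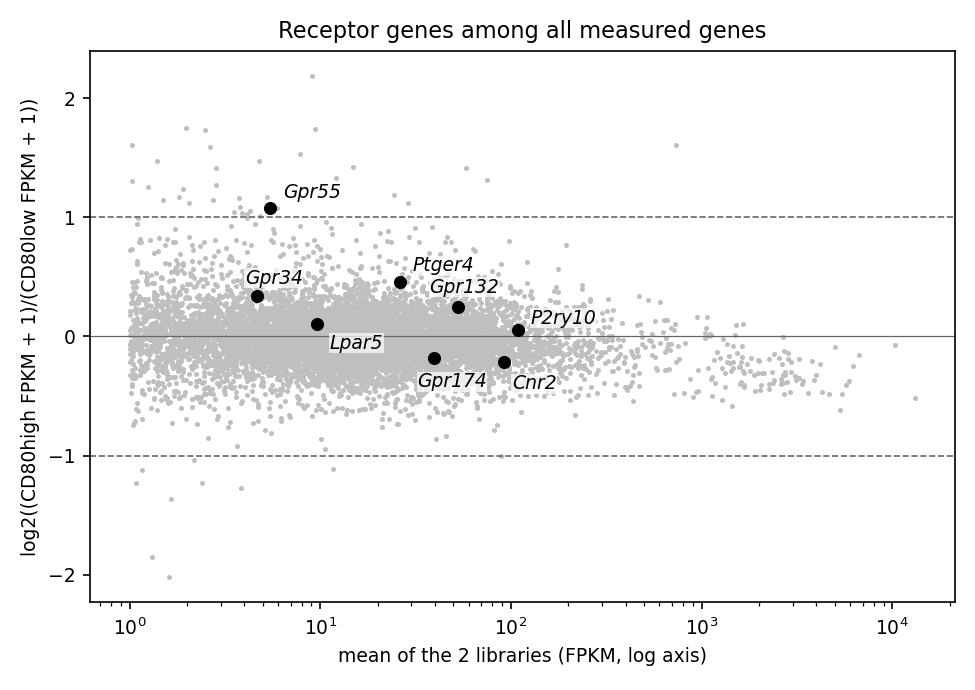
Ratio of CD80high to CD80low (log2 of FPKM + 1) against mean FPKM on a log axis for the 9955 measured genes (grey), with the 8 measured receptor genes in black and dashed lines at 2-fold. Gpr55 lies at 1.07, above the upper line, and the other 7 lie between -0.22 and 0.46.

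Gpr34 lies within the gene Cask, on the opposite strand of chromosome X (13632089 to 13640858, plus strand), and shares no exonic base with it. Cask had 0.5998 and 0.384 FPKM. Gpr34 rested on about 240 and 185 fragments. In CD80low its counting interval (3.45 to 4.63 FPKM) overlapped that of Gpr55 (2.81 to 3.57 FPKM), whereas in CD80high the interval of Gpr55 lay above that of Gpr34 (4.68 to 6.06 FPKM).

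Gpr132 encodes a receptor that responds to oxidised fatty acids and lysophospholipids and is related to proton-sensing receptors. It lies on chromosome 12 (112850873 to 112868228, minus strand) and had 57.6 FPKM in CD80high against 48.4 FPKM in CD80low. CD80high was 1.19-fold higher (1.13 to 1.25), with a p-value of 0.307 in the authors' deposited table. Its relative Gpr65, a proton sensor, was nearly equal (18.2 and 18.3 FPKM).

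Lpar5 encodes a receptor for lysophosphatidic acid, known in mouse lymphocytes for restraining antigen receptor signalling. It lies on chromosome 6 (125067920 to 125082472, plus strand) and had 10.02 FPKM in CD80high against 9.24 FPKM in CD80low. The fold of 1.08 had an interval of 0.923 to 1.27, so a difference was not detectable at this depth. The p-value of Lpar5 was 0.747 in the authors' deposited table. Other receptors for the same ligand, Lpar6 (11.8 and 11.5 FPKM) and Lpar2 (8.84 and 9.25 FPKM), likewise had intervals that include 1, 0.953 to 1.10 and 0.881 to 1.04.

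Ptger4 and Ptger2 encode the prostaglandin E2 receptors EP4 and EP2, which couple to Gs and raise cyclic AMP. Ptger4 (chromosome 15, 5206661 to 5244187, minus strand) had 30.6 FPKM in CD80high against 21.99 FPKM in CD80low, and CD80high was 1.39-fold higher (1.31 to 1.48). Its ratio of 0.46 was the next after Gpr55 among these receptors and the 260th highest of the 9955 measured genes. In the authors' deposited table its p-value was 0.0579 and its q-value 0.999. Ptger4 shares 1.23% of its exonic bases with Ttc33 on the opposite strand, which had 15.01 and 15.8 FPKM, and 15.3% with the pseudogene Gm15937 on that strand. Ptger2 lies on chromosome 14 (44988195 to 45003820, plus strand). It had 0.131 FPKM in CD80high against 0.113 FPKM in CD80low, about 11 and 10 fragments, and was not tested in the authors' deposited table. Its fold of 1.16 had an interval of 0.435 to 2.96, so no difference was detectable at this depth. Ptger4 thus gave nearly the whole summed level of these receptors, 30.6 of 30.7 FPKM in CD80high against 21.99 of 22.1 FPKM in CD80low.

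Ordered by level, the genes ran P2ry10, Cnr2, Gpr132, Gpr174, Ptger4 and Lpar5 in both libraries, followed by Gpr55 and then Gpr34 in CD80high, by Gpr34 and then Gpr55 in CD80low, and by Ptger2 last. The counting intervals of neighbours in this order were separate for 8 of 8 pairs in CD80high and for 7 of 8 in CD80low, the exception being Gpr34 and Gpr55. These intervals do not hold the spread between animals. The summed level of the 9 genes was 344 FPKM in CD80high against 335 FPKM in CD80low, and Gpr55 made up 2.26% and 0.947% of it. Of the 8 measured genes 6, the selected Gpr55 among them, were higher and 2 lower in CD80high, with a median ratio of 0.18. Of all 9955 measured genes 46.4% were higher, with a median of -0.015.

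Another 41 receptors for lipids, oxysterols, fatty acids or protons were listed, of which 13 were measured, 6 of them higher and 7 lower in CD80high. S1pr1, the receptor for sphingosine 1-phosphate that leads lymphocytes out of tissue, exceeded all 9 genes in level, with 277 FPKM in CD80high against 250.1 FPKM in CD80low. S1pr3, also on the marginal zone list, had 91.2 and 68.9 FPKM, and CD80high was 1.32-fold higher (1.28 to 1.36). Gpr183, the oxysterol receptor that guides B cells to the edge of follicles, had 87.9 and 78.8 FPKM. Gpr18 had 50.9 and 67.2 FPKM, and CD80low was 1.32-fold higher (1.24 to 1.41), the lowest ratio among the 21 measured receptors. Ptafr, the receptor for platelet-activating factor, had 2.93 and 1.31 FPKM. With no pseudocount, the FPKM of 0.733% of the 9955 measured genes was at least 2-fold higher in CD80high and that of 0.261% at least 2-fold lower. Of the 13 measured receptors outside the 9, that criterion called Ptafr (2.23-fold higher, interval 1.78 to 2.83), and of the 9 it called Gpr55, which had been selected on this difference. Among the other prostanoid receptors Tbxa2r, for thromboxane, had 10.7 and 9.97 FPKM, Ptger1 had 0.418 and 0.270 FPKM, and 4 of the 7 were listed at 0 in both libraries. Cnr1, the other cannabinoid receptor gene, was listed at 0.00931 FPKM in CD80high and 0 in CD80low. Ptafr and Cnr1 were chosen after their values were seen.

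**Figure D3:**
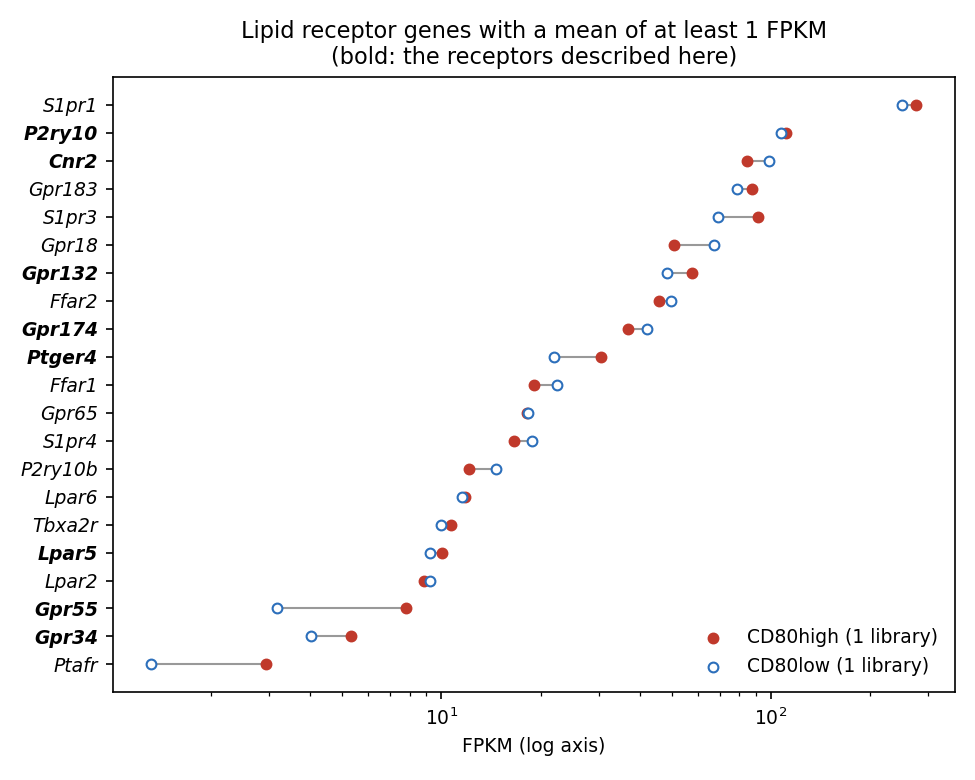
Expression in FPKM on a log axis of the 21 listed lipid receptor genes that were measured, ordered by level, with 1 point per library (filled red CD80high, open blue CD80low) joined by a line. The longest lines belong to Gpr55 (3.17 to 7.79 FPKM) and Ptafr (1.31 to 2.93 FPKM), while the points of Gpr65 and P2ry10 nearly overlap.

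Of the 61 measured genes on the receptor and pathway lists outside the 9, 39 were higher and 22 lower in CD80high, with a median of 0.072. Of all 9955 measured genes 46.4% were higher. On the ratio with a pseudocount of 1, 0 of the 61 were past 2-fold, where 0.352% of all measured genes were higher and 0.1% lower by that much, and with no pseudocount Ptafr alone was. Of 6 measured genes of lysophosphatidylinositol and lysophosphatidylserine metabolism 5 were higher, with a median of 0.12. The most abundant were Abhd12, a lysophosphatidylserine lipase (30.6 and 27.8 FPKM), and Mboat7, which reacylates lysophosphatidylinositol (28.9 and 26.6 FPKM). Of 4 measured endocannabinoid genes 2 were higher and 2 lower, with a median of 0.032. Faah, the hydrolase of anandamide, was 1.67-fold higher in CD80high (13.6 and 8.18 FPKM, interval 1.52 to 1.83), while Naaa, which hydrolyses related fatty acid amides, was nearly equal (14.8 and 14.9 FPKM). Of 3 measured genes of lysophosphatidic acid metabolism 2 were higher, with a median of 0.22. Plpp3, a lipid phosphate phosphatase, had 15.97 and 12.6 FPKM, and Agk, a lipid kinase, had 3.45 and 4.02 FPKM. Of 5 measured genes of prostaglandin metabolism and transport 1 was higher, the transporter gene Abcc4 (5.35 and 4.64 FPKM), and the median was -0.13, but 0.011 with equal totals. Ptges3, a prostaglandin E synthase and chaperone partner, was the most abundant of them (109 and 121 FPKM). The cyclooxygenase genes Ptgs1 (0.0956 and 0.0155 FPKM) and Ptgs2 (0.0789 and 0.0653 FPKM), named after their values were seen, were near 0 in both libraries.

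Genes of the G proteins through which these receptors signal, and of the steps after them, were compared last. Of 8 genes of the G12/13 signalling list 7 were higher in CD80high (median ratio 0.12). They were led by Arhgef1, the exchange factor that G13 activates in lymphocytes (343 and 296 FPKM), and Rhoa, a small GTPase gene, was the exception (298 and 327 FPKM). Of 15 measured genes of Gs and cyclic AMP signalling 12 were higher, with a median of 0.080. The most abundant were Gnas (334 and 316 FPKM), which encodes the Gs alpha subunit, and Prkar1a (119.7 and 119 FPKM), a regulatory subunit of protein kinase A. Pde4a, a phosphodiesterase that degrades cyclic AMP, had 32.9 and 21.8 FPKM, the highest ratio of that list (0.57), and was named after its values were seen. Of 7 measured genes of Gi and Gq signalling 4 were higher, with a median of 0.13, and the most abundant were the Gi alpha subunit genes Gnai2 (237 and 248 FPKM) and Gnai3 (47.3 and 53.2 FPKM). Equal totals raise each ratio by 0.16 before the pseudocount, took the median of all measured genes from -0.015 to 0.12, and took those of these 3 lists to 0.26, 0.23 and 0.27. Relative to genes of similar transcript length, the median of the G12/13 signalling list was 0.036.

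**Figure D4:**
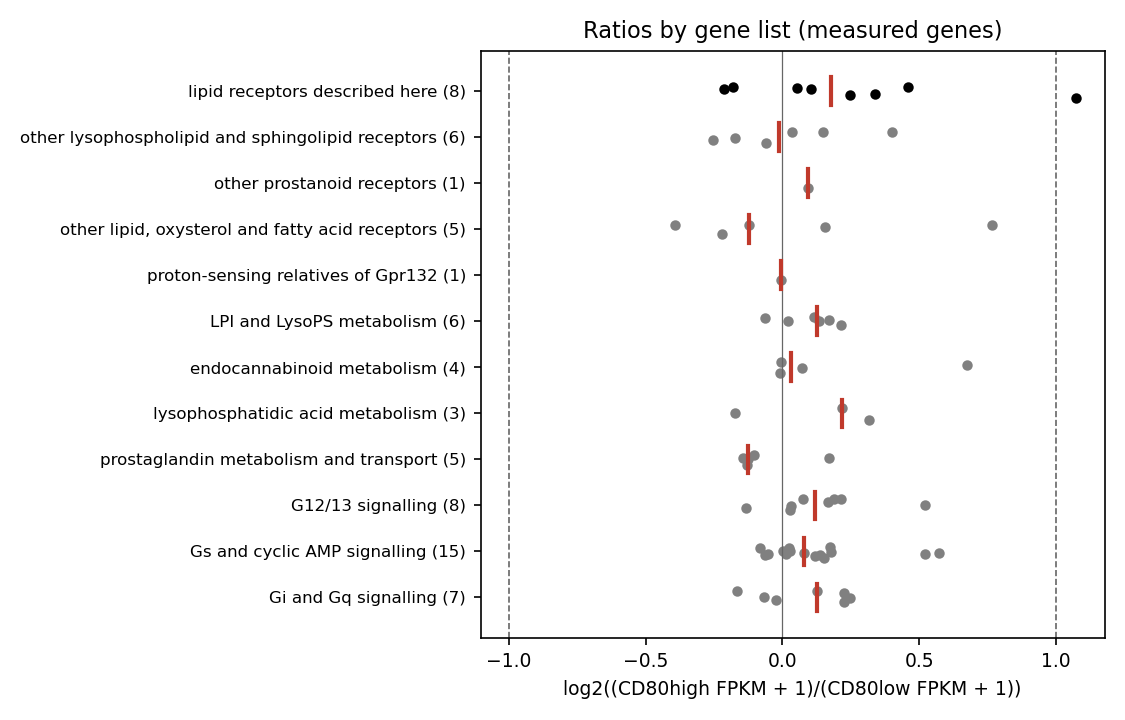
Ratio of CD80high to CD80low (log2 of FPKM + 1) for each measured gene of the receptor and pathway lists, with the number of measured genes in brackets (LPI, lysophosphatidylinositol; LysoPS, lysophosphatidylserine), a red bar at the median and dashed lines at 2-fold. Gpr55 is the one point past a dashed line, and list medians lie between -0.13 and 0.22, with the negative ones above 0 when the library totals are set equal.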

How the data were processed

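RNA was sequenced from 1 library of CD80high and 1 of CD80low marginal zone B cells. Per the submitters' processing notes, the build was mm10 and the tools included STAR 2.6, Cufflinks 2.2.1, Cuffdiff and Cuffnorm. The file headers name no unit for the expression values, and the deposited values are FPKM, which those tools, run by the authors, report. This reading of the unit rests on the tools alone. Low values fell with transcript length (slope on log scales -1.06 in CD80high and -0.98 in CD80low). The genes of that fit were chosen by value times length, which itself sets such a slope, so the slope cannot decide the unit. The deposited p-value and q-value columns are the authors' own, per the file headers. The library kit was directional, per the labels' protocols, but the sources used here do not say if strand was used in counting.

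From the FPKM values a ratio with a pseudocount of 1 was computed, and genes whose 2 values averaged 1 FPKM or more were counted at 2-fold. No test was run, since each population has 1 library. The 24 repeated symbols were summed. Depth came from the value of 1 fragment in single-transcript genes over 2000 nucleotides, and fragment numbers from the median length of complete coding transcripts (GENCODE M21, GRCm38). They cover counting error only. Coding sequences were aligned globally. The calculation was tested on simulated data with counting error only and with larger folds than that of Gpr55. That test held neither spread between animals nor a trend with transcript length. The receptors and lists were chosen with earlier results of these data known. Named genes are the 9 receptors; list genes past 2-fold, or else the 2 most abundant of a list; the 2 most abundant markers per list; and the 5 genes nearest to Gpr55. Other genes were named after their values were seen: Ptafr, Pde4a, Cnr1, the cyclooxygenase genes, Lpar2, Lpar6 and genes overlapping a receptor gene. Markers listed at 0 in a library were likewise named after their values were seen. Cd80, as the sort marker gene, and P2ry10b, as the paralogue of P2ry10, were named in addition to the rule. One gene that this rule names is not reported here. Biopython 1.88, scipy 1.17.1, pandas 2.3.3, numpy 2.4.6 and matplotlib 3.10.9 were run under Python 3.11.15. Alternatives were pseudocounts of 0.1 and 5, other filters and thresholds, rescaling, centring, the other sheet and, added after seeing the data, a length adjustment and no pseudocount.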

Additional observations from a re-analysis of the deposited data

How the results depend on the processing

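The ratio of Gpr55 was 1.07 as computed, 1.27 with 0.1 as the pseudocount, 1.30 with none and 0.65 with 5; in the last case 0 receptors reached 2-fold, against 1. Under the 4 other settings tried for it (rescaling, centring, the other sheet and the length adjustment) it lay between 1.05 and 1.20. Each of the 9 receptors kept the direction of its ratio under every setting tried for it. A change of pseudocount cannot turn a direction, and the other sheet held the same values for these receptors. Only rescaling, centring and the length adjustment could have turned one. Of the pathway genes, 1 (Ptafr) reached 2-fold with a pseudocount of 0.1 or none and 2 (Faah and Ptafr) were past a threshold of 1.5-fold, against 0. The median of the other lipid, oxysterol and fatty acid receptors was -0.12, but 0.013 with no filter on low values and 0.031 after rescaling to the mean total; with no filter, the receptors near 0 enter it. Medians near 0 changed sign more widely: after that rescaling those of the other lysophospholipid and sphingolipid receptors (-0.013) and of the proton-sensing relatives (-0.0067) were 0.13 and 0.14, and with a filter at 5 FPKM that of the endocannabinoid genes (0.032) was -0.0071. Of 62 recomputed ratios of single receptors 52 stayed inside the counting interval. That interval was built at a pseudocount of 1, and the ratios from the other sheet could not move. The count is therefore no measure of stability. The counts of all measured genes past 2-fold, 35 higher and 10 lower, became 69 and 25 at a pseudocount of 0.1, 73 and 26 with none, 8 and 0 at 5, 13 and 2 with a filter at 5 FPKM, and 51 and 7 after rescaling. The deposited sheets differed for 5 genes, none of them a receptor or pathway gene described here. No paired analysis was possible because each population has 1 library, and leaving out a library leaves no comparison. Depth limits Ptger2, Lpar5 and the receptors under 1 FPKM.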

Other observations

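Over the 2 libraries, the genes closest to Gpr55 by Euclidean distance on log2(FPKM + 1) were Cln8 (7.65 FPKM in CD80high and 2.84 FPKM in CD80low, distance 0.12), Ccnb1ip1 (8.44 and 3.47 FPKM, distance 0.14), Bag3 (7.63 and 3.63 FPKM, distance 0.15), Emb (7.74 and 3.78 FPKM, distance 0.19) and Dnaja4 (7.29 and 3.72 FPKM, distance 0.20). With 2 libraries, this likeness says only that their level and ratio are near those of Gpr55.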
